A study of Mus musculus with 7 samples.

Results

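The cardiac factors GATA4, GATA5 and GATA6, the MEF2 proteins, their cofactors FOG1 and FOG2 (genes Zfpm1 and Zfpm2) and the homeodomain protein NKX2-5 were followed through neural crest cells with and without the chromatin remodelling enzyme CHD7. The 9 genes (Gata4, Gata5, Gata6, Mef2a, Mef2c, Mef2d, Zfpm1, Zfpm2 and Nkx2-5) were taken by symbol, and all 9 were found among the 19144 gene symbols of the expression table. RNA came from cells positive for green fluorescent protein, sorted at E10.5 from mouse pharyngeal arches 3 to 6. Embryos of both groups carried Wnt1-Cre2, a Cre recombinase driven in the neural crest and the dorsal neural tube, and the mTmG reporter, which turns green in cells with Cre and in their descendants. The 4 control libraries (wild type 1 to 4) were labelled Chd7 +/+, and the 3 mutant libraries (Chd7 deletion 1, 3 and 4) were labelled Chd7 loxp/loxp. The mothers of the stated cross were Chd7 loxp/loxp, so every embryo would be due at least 1 floxed copy, and the control genotype was taken as labelled. No litter and no number of embryos per library is named in the labels. The p-values below thus speak of the spread among these 7 libraries, some of which may be technical.

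GATA proteins are zinc finger factors that bind DNA at GATA sites. GATA4, GATA5 and GATA6 act in heart muscle, endoderm and smooth muscle, and in mice the loss of Gata6 from neural crest or smooth muscle leads to malformed outflow vessels. FOG proteins do not act by binding DNA themselves but bind the GATA amino-terminal zinc finger and recruit co-repressors. MEF2 proteins share a MADS box and answer to calcium signals through class IIa histone deacetylases, and in mouse neural crest MEF2C is needed for craniofacial development. NKX2-5 is a homeodomain partner of GATA4 in cardiac progenitors.

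The expression unit was FPKM, reads scaled for gene length and library total, so levels of different genes can be set side by side per length. Chd7 was lower in every deletion library, at 13.9 to 14.6 FPKM in the wild type and 7.5 to 7.91 FPKM after deletion (log2 fold change -0.80, SE 0.062, limma adjusted p = 0.00266). All 12 neural crest markers examined averaged at least 1 FPKM, with a summed level of 424 to 461 FPKM in the wild type and 359 to 506 FPKM after deletion, most of it from Crabp1. Of these 12 markers, 2 rose (Sox10 and Foxd3) and 1 fell (Hand2) without the replicate block described below, and 2 rose and 5 fell with it. Numbers 1 and 2 were separated from numbers 3 and 4, in both genotypes, by the first principal component, which held 60.5% of the variance. Only Chd7 deletion 1 among the mutants belongs to the first set, so a comparison of the group means mixes part of that difference with the genotype. Same-numbered libraries deviated together, and each result is therefore given from the fit without the number and, where it changes the call, from the fit with the replicate number as a block. In the fit without the block 98 of 11039 genes averaging 1 FPKM or more passed an adjusted p of 0.05 (45 higher and 53 lower after deletion), which is 0.888% of the genes tested. When FPKM was rescaled to the same sum in every library, the calls were 83 higher and 64 lower. With the block they were 115 higher and 251 lower, and with the library set as a covariate 169 higher and 551 lower.

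The promoters of the Mef2 genes differ in base composition, and 1 of each kind is shown for that reason. Any relation between base composition and expression was not tested. Each sequence is the 250 bases before a RefSeq transcription start (GRCm38.p6, plus strand), with every CG dinucleotide in capitals. The Mef2d window is chr3:88142122-88142371, and the Mef2c window, the first of 3 Mef2c starts in the RefSeq table, is chr13:83503784-83504033.
Mef2d: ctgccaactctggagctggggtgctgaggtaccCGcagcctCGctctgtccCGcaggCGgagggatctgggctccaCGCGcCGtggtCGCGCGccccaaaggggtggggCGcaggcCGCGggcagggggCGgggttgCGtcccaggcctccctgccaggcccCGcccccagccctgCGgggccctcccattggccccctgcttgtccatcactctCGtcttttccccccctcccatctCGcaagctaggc
Mef2c: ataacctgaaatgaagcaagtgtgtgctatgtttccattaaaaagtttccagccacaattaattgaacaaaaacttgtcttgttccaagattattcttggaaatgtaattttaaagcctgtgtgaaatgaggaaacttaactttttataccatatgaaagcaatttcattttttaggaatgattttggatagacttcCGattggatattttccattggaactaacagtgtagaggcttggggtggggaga
The Mef2d window held 19 CG dinucleotides at 73.2% G or C, and the Mef2c window held 1 at 33.6%. The other Mef2c starts had 6 CG at 44.8% and 4 at 49.6%, while the Mef2a window had 21 at 61.6%. Windows of Gata5 (22 CG), Zfpm1 (28 CG) and Nkx2-5 (8 CG) were also found, and over all 32851 windows of this length the median was 6, with 10 or more in 37.8% of them. The expression table gives 1 value per gene and does not separate the Mef2c starts.

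In wild-type cells the 9 genes spanned from 0.343 FPKM for Nkx2-5 to 7.49 FPKM for Mef2a. Mef2a lay above all others in each wild-type library. It was followed by Mef2c (5.52 FPKM ± 1.12, SD, n = 4), Gata6 (4.67 ± 0.759), Mef2d (4.36 ± 0.312), Gata4 (3.34 ± 0.898) and Zfpm1 (2.76 ± 0.414). Gata5 (0.792 ± 0.216), Zfpm2 (0.429 ± 0.0347) and Nkx2-5 (0.343 ± 0.0793) lay well below. Neighbours in this order overlapped in their wild-type ranges except Mef2a above Mef2c, Zfpm1 above Gata5 and Gata5 above Zfpm2. Gata6 was above Mef2d in 2 of 4 wild-type libraries, but Mef2d was above Gata6 in 3 of 3 deletion libraries, where their ranges did not overlap. Of the 9 genes, 6 reached the mean of 1 FPKM needed for testing, and Gata5, Zfpm2 and Nkx2-5 did not.

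**Figure D1:**
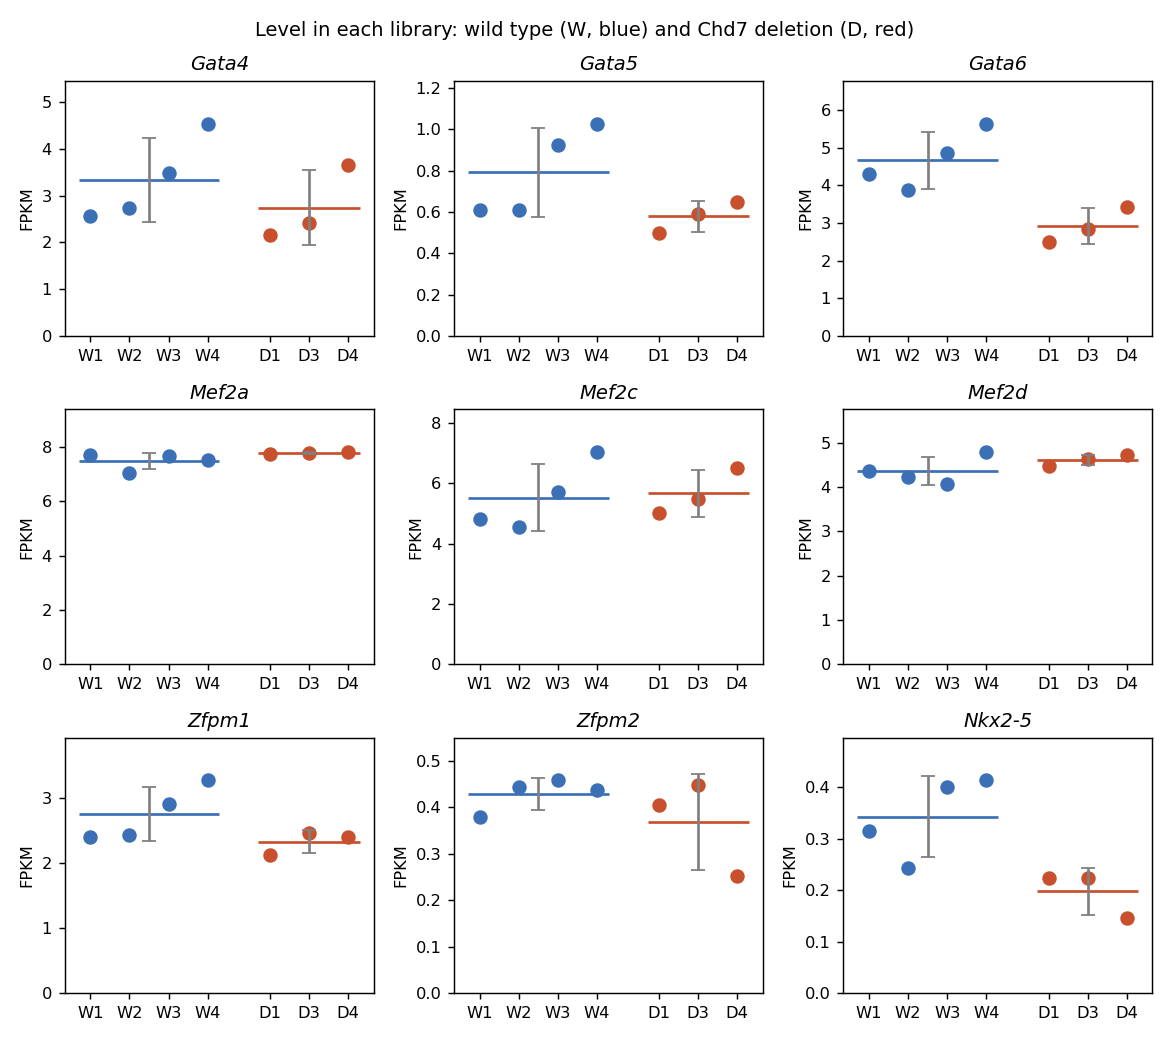
FPKM (vertical axes, from 0) of each gene in wild type 1 to 4 (W, blue) and Chd7 deletion 1, 3 and 4 (D, red), with group means as lines and SD as grey bars. Gata6 in the deletion libraries (2.48 to 3.44 FPKM) lies below all wild-type libraries (3.89 to 5.65 FPKM), and Mef2c does not separate by group.

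Gata6 had the largest difference of the 6 tested among the 9 genes. It lies on chromosome 18 of mm10 from 11052064 to 11085635. Its level was 4.31, 3.89, 4.85 and 5.65 FPKM in wild type 1 to 4, and 2.48, 2.84 and 3.44 FPKM in Chd7 deletion 1, 3 and 4. The groups did not overlap, and the deletion mean was 62.4% of the wild-type mean (4.67 ± 0.759, SD, n = 4, against 2.92 ± 0.481 FPKM, SD, n = 3). Behind these values stood 431 to 515 reads in a wild-type library and 279 to 297 in a deletion library. On the log2(FPKM + 1) scale, used for every log2 fold change here, the difference was -0.53 (standard error, SE, 0.124). In limma without the block this did not pass after adjustment over all genes (unadjusted p = 0.00234, adjusted p = 0.140). With the replicate number as a block it passed (log2 fold change -0.60, SE 0.0549, adjusted p = 0.00673), as it did with the library set as a covariate (adjusted p = 0.00478). The block fit called 3.32% of all genes tested and the covariate fit 6.52%.

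The ratio of Gata6 between same-numbered libraries was nearly constant, at 0.576 for number 1, 0.584 for number 3 and 0.608 for number 4. It stayed lower whichever library was left out, with log2 fold changes from -0.62 to -0.45 and adjusted p from 0.154 to 0.416. The antisense transcript 1010001N08Rik overlaps Gata6 on the other strand, and whether strand was used in counting is not given in the sources used here. That transcript stood at 0.174 to 0.631 FPKM in the wild type and 0.0285 to 0.248 FPKM after deletion, far below the level of Gata6. Its groups overlapped only through wild type 2 (0.174) and Chd7 deletion 3 (0.248). In same-numbered pairs it was lower after deletion each time, at 0.0285 against 0.320, 0.248 against 0.385 and 0.148 against 0.631 FPKM for numbers 1, 3 and 4. Its part in the Gata6 values was not tested. In bulk samples, fewer cells of a type and less RNA per cell cannot be told apart.

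Of the 12 neural crest markers, 3 of the mesenchymal kind were lower by a similar factor to Gata6, and are named here after their values were seen. Twist1, a basic helix-loop-helix factor of crest mesenchyme, was 22.4 ± 3.37 FPKM in the wild type and 12.9 ± 3.12 FPKM after deletion (SD, n = 4 and n = 3), or 57.6% of the wild-type mean. The paired-related homeobox genes Prrx1 and Prrx2 were at 61.4% and 67.6% of the wild-type mean. Like Gata6, these 3 genes had groups that did not overlap. Without the block they did not pass in limma (adjusted p of 0.113 for Twist1, 0.157 for Prrx1 and 0.304 for Prrx2). They did pass in limma with the block (adjusted p of 0.00695, 0.00628 and 0.00601, in that order) and with the library set as a covariate (0.00159, 0.000542 and 0.00156). Dlx2 was called lower with the block as well (adjusted p = 0.0347), at 82.8% of the wild-type mean, though its groups overlapped. Sox10 and Foxd3, factors of early and glial neural crest, were at 175% and 154% of the wild-type mean (limma adjusted p of 0.0193 and 0.0142 without the block). Of the other markers, Ets1 was at 132% of the wild-type mean, Tfap2b at 116%, Crabp1 at 104%, Tfap2a at 100.5% and Dlx5 at 82.1%. Their groups overlapped, and none of them passed without or with the block. Hand2 was at 43.3%. The part of these marker differences in the level of Gata6 was not tested.

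Gata4, which lies on chromosome 14 from 63198922 to 63271692, was 2.57, 2.74, 3.49 and 4.54 FPKM in wild type 1 to 4 and 2.16, 2.42 and 3.65 FPKM in the deletion libraries. The groups overlapped, because Chd7 deletion 4 lay above wild type 1, 2 and 3. The log2 fold change was -0.21 (SE 0.181, limma adjusted p = 0.946), and -0.27 (SE 0.0675, adjusted p = 0.0919) under the block. It ranged from -0.38 to -0.084 when 1 library was left out and was -0.013 with weights per library. Each deletion library was below its same-numbered partner, with ratios of 0.842, 0.693 and 0.804. Gata5, with a mean below the filter, showed ratios of 0.820, 0.639 and 0.631. Its levels were 0.608 to 1.03 FPKM in the wild type (63 to 97 reads) and 0.5 to 0.649 FPKM after deletion (58 to 63 reads), and the groups overlapped. The antisense gene Gata5os, which overlaps it, did not exceed 0.0440 FPKM in any library.

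The 3 Gata genes together came to 7.24 to 11.2 FPKM in the wild type and 5.15 to 7.74 FPKM after deletion. Gata6 made up 50.3% to 57.6% of that sum in the wild type and 44.4% to 48.5% after deletion, with no overlap. The share of Gata4 was 34.3% to 40.5% in the wild type and 41.4% to 47.2% after deletion. The ratio of Gata4 to Gata6 was 0.596 to 0.804 in the wild type and 0.854 to 1.06 after deletion. The log2 ratio differed by 0.40 (exact two-sided permutation test, p = 0.0571, adjusted p = 0.229 over 4 within-family pairs). The smallest p this test allows is 0.0286 before adjustment, which would not have passed after adjustment beside the p-values of the other pairs. Within same-numbered pairs the log2 ratio was higher after deletion in 3 of 3, by 0.55, 0.25 and 0.40 for numbers 1, 3 and 4, and the exact sign-flip permutation test of 3 pairs gave its smallest possible p, 0.25. The ranges of the ratio did not overlap. Neither test passed, and neither could have passed, so they do not decide whether the ratio differed.

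**Figure D2:**
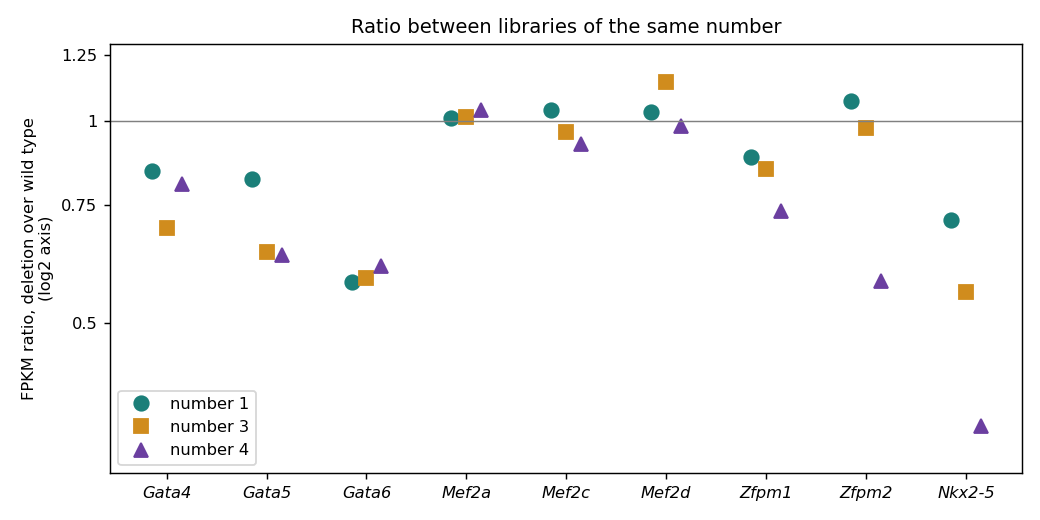
FPKM of each gene in a deletion library over that in the wild-type library of the same number, on a log2 axis, for numbers 1 (circles), 3 (squares) and 4 (triangles). The 3 Gata6 ratios sit together between 0.576 and 0.608, Mef2a lies at 1.01 to 1.04, and Nkx2-5 spreads from 0.352 to 0.712.

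Of the 9 genes, 5 (Gata4, Gata5, Gata6, Zfpm1 and Nkx2-5) were lower in all 3 same-numbered pairs, where 31.5% of genes averaging 0.1 FPKM or more were. Among the 6 tested, none passed limma without the block (1, Gata6, with an unadjusted p below 0.05, as for 7.38% of all genes tested), and Gata6 passed with it. The groups did not overlap for 2 of the 6, Gata6 and Mef2a, against 9.17% of all genes tested.

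None of the 3 Mef2 genes passed the test in either fit. Mef2a, on chromosome 7 from 67231163 to 67372858, was 7.69, 7.06, 7.68 and 7.54 FPKM in wild type 1 to 4 and 7.75, 7.79 and 7.82 FPKM after deletion. The deletion values were all above the wild-type values, by a narrow margin. The log2 fold change was 0.05 (SE 0.0638, limma adjusted p = 0.954). The coding gene Lysmd4 overlaps Mef2a on the other strand and was at 1.74 to 2.38 FPKM.

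Mef2c, on chromosome 13 from 83504034 to 83667080, had the widest spread of the 3, with an SD of 1.12 FPKM in the wild type against 0.297 for Mef2a and 0.312 for Mef2d. It was 4.82, 4.54, 5.69 and 7.03 FPKM in wild type 1 to 4 and 5.0, 5.49 and 6.50 FPKM in the deletion libraries. Wild type 3 and 4 were above wild type 1 and 2, and Chd7 deletion 3 and 4 were above Chd7 deletion 1. The groups overlapped throughout. The log2 fold change was 0.04 (SE 0.138, limma adjusted p = 0.981), and -0.034 (SE 0.0568, adjusted p = 0.724) under the block, so its sign depended on the fit. Mef2d, on chromosome 3 from 88142372 to 88172086, was 4.36, 4.23, 4.06 and 4.79 FPKM in the wild type and 4.49, 4.63 and 4.72 FPKM after deletion. Its log2 fold change was 0.07 (SE 0.0722, limma adjusted p = 0.952). The antisense gene 1700113A16Rik overlaps Mef2d and was at 0.0794 to 0.335 FPKM.

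The summed FPKM of the 3 Mef2 genes was 15.8 to 19.4 in the wild type and 17.2 to 19.0 after deletion. Mef2a held 38.9% to 45.6% of it in the wild type and 41.1% to 45.0% after deletion, and Mef2c held 28.6% to 36.3% and 29.0% to 34.1%. For the 3 ratios between Mef2 genes no difference by group was detected (exact two-sided permutation tests, p from 0.714 to 0.971, adjusted p = 0.971), with differences of the log2 ratio from -0.03 to 0.01.

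**Figure D3:**
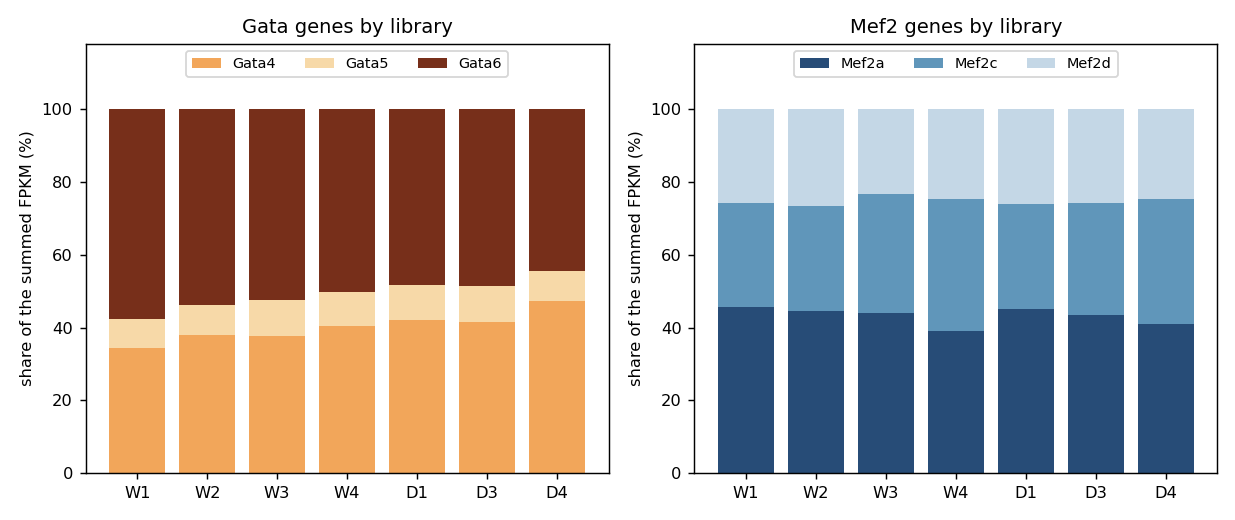
Share of each gene in the summed FPKM of the Gata genes (left) and of the Mef2 genes (right), in percent, for wild type 1 to 4 (W) and Chd7 deletion 1, 3 and 4 (D). The Gata6 share is at most 48.5% in the deletion libraries and at least 50.3% in the wild type, whereas the Mef2 shares overlap between groups.

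Zfpm1, the gene of FOG1, a cofactor best known from its work with GATA1 in blood, lies on chromosome 8 from 122282141 to 122337251. It was 2.40, 2.44, 2.90 and 3.27 FPKM in wild type 1 to 4 and 2.13, 2.46 and 2.40 FPKM after deletion. The groups overlapped, and the log2 fold change was -0.17 (SE 0.0993, limma adjusted p = 0.875, or 0.160 under the block). Gata1 itself did not exceed 0.0261 FPKM in any library. Zfpm2, the gene of FOG2, a cofactor of GATA4 in the heart, lies on chromosome 15 from 40655035 to 41104592. It was 0.379, 0.443, 0.458 and 0.437 FPKM in the wild type and 0.406, 0.447 and 0.253 FPKM after deletion. Chd7 deletion 4 stood apart at 34 reads, where the other libraries had 59 to 89, and the other deletion libraries lay within the wild-type range. Zfpm2 was not tested because of its low level, and in a fit with the filter at 0.1 FPKM its adjusted p in limma was 0.910.

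Nkx2-5, on chromosome 17 from 26838664 to 26845009, was the lowest of the 9. It was 0.314, 0.244, 0.400 and 0.414 FPKM in wild type 1 to 4 and 0.224, 0.223 and 0.145 FPKM in the deletion libraries. The groups did not overlap. Of all genes averaging 0.1 FPKM or more, 5.92% were lower after deletion with no overlap. Only 15 to 19 reads stood behind a wild-type value and 6 to 12 behind a deletion value, where single reads move the value. With the filter at 0.1 FPKM its log2 fold change was -0.16 (SE 0.061, limma adjusted p = 0.470, or 0.155 with the block as well).

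**Figure D4:**
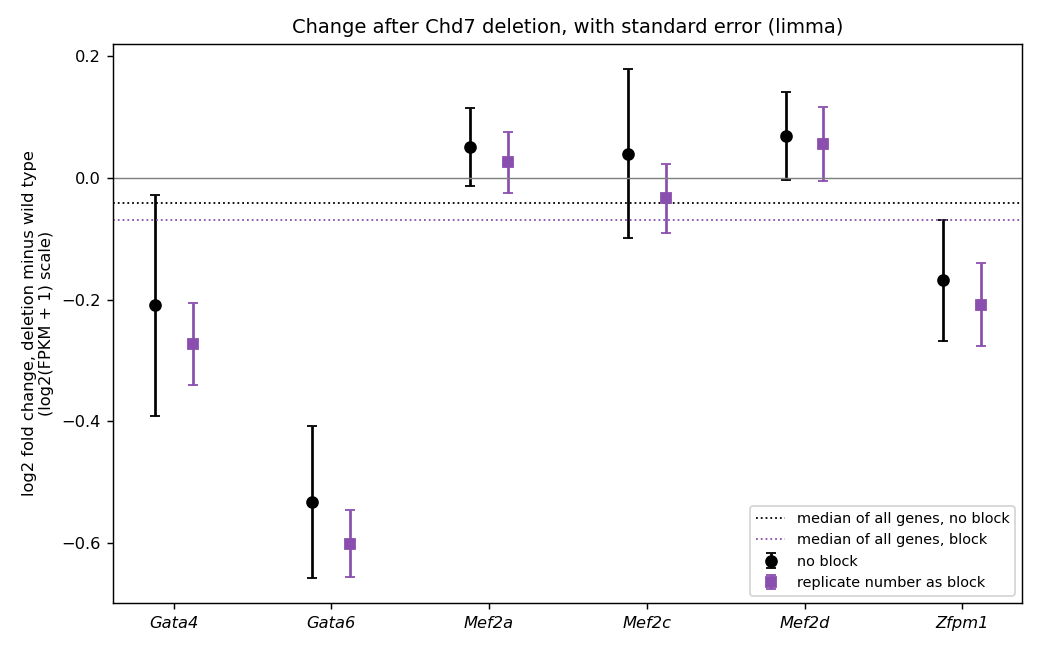
Log2 fold change (deletion minus wild type, log2(FPKM + 1) scale) with its standard error for the 6 genes tested, without a block (black circles) and with the replicate number as a block (purple squares). Gata6 is at -0.53 and -0.60, and dotted lines mark the medians of all genes tested, -0.04 and -0.07.

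Heart muscle markers were low and moved with the library number. Of 14 such genes, 6 averaged at least 1 FPKM, the highest being Tnni1 at 1.47 FPKM, and Nppb and Ryr2 stayed below 0.5 FPKM in every library. No marker was at 0 in all libraries, but Myl2 was at 0 in wild type 1. Their summed level was 3.68, 7.65, 12.3 and 17.8 FPKM in wild type 1 to 4 and 8.46, 14.0 and 16.5 FPKM in Chd7 deletion 1, 3 and 4. Gata4, Gata5, Gata6, Mef2c and Mef2d were also highest in library 4 of each group, and the part of heart muscle RNA in their levels was not tested. The share of all genes that were highest in library 4 of both groups was not counted. Markers of pharyngeal endoderm, where Gata genes are also active, summed to 19.3 to 23.7 FPKM in the wild type and 17.1 to 21.8 FPKM after deletion, with 4 of 10 at a mean of at least 1 FPKM. Smooth muscle markers (4 of 8 at that level) summed to 36.1 to 53.6 FPKM and 34.5 to 54.6 FPKM. Endothelial markers (2 of 10) summed to 5.27 to 7.29 FPKM and 3.91 to 7.40 FPKM. Blood markers (5 of 11) summed to 23.1 to 39.0 FPKM and 23.3 to 56.4 FPKM, and arch mesoderm markers (2 of 8) to 5.18 to 6.62 FPKM and 4.63 to 6.03 FPKM. The summed levels of the groups overlapped in all 6 of these lists. None of their tested genes passed the threshold in limma without or with the block. With the library set as a covariate endothelial Pecam1 passed (adjusted p = 0.0354, 70.4% of the wild-type mean), as did 6.52% of all genes tested. Foxa1 of endoderm, below the filter, was 0.935 to 1.33 FPKM in the wild type and 0.510 to 0.865 FPKM after deletion. It was at 62.5% of the wild-type mean, against 110% for Foxa2 and 97.2% for Shh. The part of these markers in the difference of Gata6 was not tested.

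Levels in wild type 3 and 4 were both above wild type 1 and 2 for 6 of the 9 genes, and in deletion 3 and 4 also above deletion 1 for 5 of them. Over all genes tested the shares were 56.1% and 50.7%, so this was near the background.

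Hand2 and Foxc2 were the called genes among other transcription factors of the heart and outflow tract. Of 25 listed, 15 were tested, 2 fell and none rose, with a median log2 fold change of -0.15 against -0.04 for all genes. Under the block 4 fell, which added Hand1 and Foxc1. Calls in either direction made up 0.888% of all genes tested without the block and 3.32% with it. The same shares are the background for the lists that follow. Hand2, a basic helix-loop-helix factor of the arches and right ventricle, had a wild-type mean of 15.3 ± 1.96 FPKM (SD, n = 4) and a deletion mean of 6.61 ± 1.4 FPKM (SD, n = 3; limma, adjusted p = 0.0142). Foxc2, a forkhead factor of the arch arteries, was 6.43 ± 0.433 and 4.29 ± 0.421 FPKM (adjusted p = 0.0398). Both stayed lower whichever library was left out, but Foxc2 no longer passed without any one of the 7 libraries (limma adjusted p from 0.0789 to 0.142). Hand2 did not pass without wild type 3 (adjusted p = 0.0724), Chd7 deletion 3 (0.0662) or Chd7 deletion 4 (0.0609). The highest genes of the list were Tead2 (67.4 ± 5.59 against 57.6 ± 7.30 FPKM), Tbx2 (30.8 ± 3.24 against 26.5 ± 2.16 FPKM) and Tbx3 (20.1 ± 2.14 against 19.5 ± 0.866 FPKM), and none of these passed without or with the block. With the library set as a covariate Tead2 passed as lower (limma adjusted p = 0.0321), and its groups did not overlap.

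Among 25 genes known from other work as targets of GATA4, GATA6 or MEF2C, 17 were tested and 1 fell, Hand2, with a list median of -0.07. Under the block Sema3c fell too (log2 fold change -0.50, adjusted p = 0.0167). Sema3c, a guidance ligand that GATA6 regulates in mouse outflow vessels, was singled out after its values were seen. It was 2.05 to 2.93 FPKM in the wild type and 1.22 to 1.77 FPKM after deletion, with no overlap, and without the block its adjusted p was 0.112. The highest genes of this list were Cdk4 (218 ± 17.5 against 187 ± 29.4 FPKM), Ccnd2 (84.2 ± 5.09 against 100.03 ± 4.71 FPKM) and Jun (37.9 ± 5.51 against 39.8 ± 3.47 FPKM), and none passed without or with the block. With the library set as a covariate Ccnd2 passed as higher (limma adjusted p = 0.0349), and its groups did not overlap.

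Of 26 enzymes and partners that regulate MEF2, 21 were tested and none passed in limma without the block (3 with an unadjusted p below 0.05), with a median of -0.05. Under the block 1 fell, Nfatc4, a calcineurin-regulated factor (15.2 ± 1.4 against 9.87 ± 1.93 FPKM, adjusted p = 0.0102, or 0.104 without the block), also singled out after its values were seen. The highest were the methyltransferase gene Carm1 (29.1 ± 1.96 against 29.3 ± 0.753 FPKM), the calcineurin subunit gene Ppp3r1 (26.6 ± 1.07 against 25.3 ± 1.59 FPKM) and the kinase gene Prkd3 (21.9 ± 2.39 against 20.2 ± 2.91 FPKM). With the library set as a covariate Nfatc4, Hdac7, Mapk14 and Prkd1 passed as lower (limma adjusted p of 0.00344, 0.0286, 0.0364 and 0.0435). That fit called 6.52% of all genes tested.

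Of 17 further GATA and MEF2 family genes and co-repressor partners of FOG, 15 were tested and 1 fell, with a median of -0.11. That gene was Nr2f1, an orphan nuclear receptor, with a wild-type mean of 50.2 ± 0.774 FPKM (SD, n = 4) and a deletion mean of 36.1 ± 2.87 FPKM (SD, n = 3; limma, adjusted p = 0.0366). It stayed lower but did not pass when any one library was left out (adjusted p from 0.0682 to 0.173). The highest were Rbbp4 (88.0 ± 6.29 against 78.8 ± 12.5 FPKM) and Chd4 (81.9 ± 4.22 against 81.1 ± 3.01 FPKM), both of the NuRD complex that FOG1 recruits, and the co-repressor gene Ctbp1 (70.5 ± 1.06 against 65 ± 5.43 FPKM). None of the 3 passed. Gata3, also in this list, was 5.46 ± 1.22 FPKM in the wild type and 3.96 ± 0.467 FPKM after deletion, with overlapping groups. It was lower in all 3 same-numbered pairs, at ratios of 0.863, 0.644 and 0.646. Its adjusted p in limma was 0.602 without the block, 0.0652 with it and 0.0367 with the library set as a covariate. Gata2 was at 100% of the wild-type mean.

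The genes whose pattern over the 7 libraries came closest to that of a member were found from the root mean square difference of centred log2(FPKM + 1) values among 11038 others. For Gata6 they were Mecom (0.0501), Dpep1 (0.0520) and Itgb5 (0.0572), against a median difference of 0.285. For Gata4 they were Itga8 (0.0401), Mir17hg (0.0585) and Pmp22 (0.0602), against a median of 0.243. For Mef2c they were Mical2 (0.0472), Fastkd5 (0.0504) and Rad50 (0.0510), and for Zfpm1 they were Spred2 (0.0255), Mbnl3 (0.0265) and Smarcd2 (0.0272). For Mef2a they included Krba1 (0.0150) and Dnajc16 (0.0182), and for Mef2d they were Megf6 (0.0302), Nacc2 (0.0324) and Heatr5a (0.0326). With 7 libraries and 11038 genes to choose from, close matches are a description of these samples.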

How the data were processed

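FPKM values of the 7 libraries were deposited by the authors in a single table. Partek, SAMtools, HISAT2, Trimmomatic 0.38, bcl2fastq 2.18.0.12 and the build mm10 are named, with no role or order, per the submitters' processing notes, and the labels' protocols name a strand-specific kit with ribosomal RNA depletion. For annotation, filters and strand use, the steps are not stated in the sources used here. FPKM falls for all genes in a library where abundant transcripts take more reads, and Rn45s, a ribosomal RNA precursor, took 4.11% to 8.68% of the sum.

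Of 19169 rows, 25 with a date in place of a symbol were left out. Genes averaging 1 FPKM or more entered limma 3.58.1 on the log2(FPKM + 1) scale (R 4.3.3, intensity trend, 2-sided, Benjamini-Hochberg adjustment over 11039 genes at 0.05). The fit without the block was tested on simulated data with independent noise and no difference between library sets. The fits with the block or the library set were not tested in this way. Single values used exact permutation tests. Replicate numbers were accepted as pairs because same-numbered libraries deviated together, with a correlation of deviations of 0.704, 0.399 and 0.775. Some libraries of different number but the same set also deviated together, wild type 2 with deletion 1 (0.592), wild type 3 with deletion 4 (0.377) and wild type 4 with deletion 3 (0.250), so number and set are only partly told apart. Wild type 2 has no partner and adds nothing to the genotype difference in the block fit.

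Relative depth, read from steps between low values, was 0.865 to 1.29 times that of wild type 1. Reads behind a gene are the smallest whole numbers in the ratio of its depth-corrected values, within 0.02 of a whole read. They could be multiples, none was found for Mef2d, and they were not used in tests. Positions are from GENCODE M21, and promoters from RefSeq (6 of 9 genes matched). The 9 genes and all lists were chosen with earlier results of these data known. Named genes were the 9, every list gene past the threshold, the 3 highest of each list, and the 3 nearest patterns, of which 1 is not reported here. Genes called with the block or the library set but not without them were named in addition after their values were seen. So were the neural crest and endoderm markers and Gata2. Alternatives covered pseudocount, filter, scaling, weights, block, library set and leaving out each library. Python 3.11.15 was used for tables and figures.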

Additional observations from a re-analysis of the deposited data

How the results depend on the processing

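Chd7 was lower and past the threshold in all 20 alternatives (log2 fold change -0.87 to -0.74). Gata6 was lower in all 20 (-0.66 to -0.42, adjusted p in limma from 0.00478 to 0.416), past the threshold in 3 of them: the count of the 9 genes called was 1 with the replicate block, 1 with the library set as a covariate, and 1 with the block and a filter at 0.1 FPKM, an alternative added after seeing the data. It was 0 in the others, those that left out 1 library included. Gata4 (-0.38 to -0.013, nearest 0 with weights per library) and Zfpm1 (-0.25 to -0.10) were lower, and Mef2a (0.025 to 0.11) and Mef2d (0.041 to 0.13) higher, in all 20, with none past the threshold. Mef2c turned below 0 with the replicate block (-0.034, with either filter), with the library set as a covariate (-0.012) and in replicates 3 and 4 alone (-0.072), and lay between -0.049 and 0.14 when 1 library was left out. The count over all genes, 98, became 62 with no filter, 156 after scaling by median of ratios, 213 with weights per library, 366 with the replicate block (all 98 shared), 345 with the block and the lower filter, and 720 with the library set as a covariate. It ranged from 4 to 72 when 1 library was left out. Of the wild type, leaving out library 1 gave 40, library 2 gave 35, library 3 gave 4 and library 4 gave 53. Of the deletion, leaving out library 3 gave 12 and library 4 gave 4. The cause was not tested. Of the other genes named as called, Hand2 passed in 17 of 20 alternatives, Foxc2 in 11 and Nr2f1 in 11, all lower throughout. Foxc2 did not pass with no filter (adjusted p = 0.0718) or in replicates 3 and 4 alone (0.0726), and Nr2f1 did not pass under quantile normalization (0.104) or in replicates 3 and 4 alone (0.0697). Depth limits Nkx2-5, Zfpm2 and Gata5, which rest on 6 to 97 reads per library. Testing ratios between genes of a family within same-numbered pairs was chosen after seeing the data, and none passed. With 3 pairs the exact sign-flip test cannot give a p below 0.25, so it could not have changed a call.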
